A study of Mus musculus with 27 samples.

Results

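Proteasome subunit genes were examined in Kupffer cells, macrophages that reside in the liver, from mice fed a diet that gives steatohepatitis without alcohol (NASH) and from mice fed a control diet. The members were all genes of the H3K27ac table whose name begins with Psm, a letter from a to g and a digit, immunoproteasome genes included. There were 44 such genes of 16038 named genes, and they held 142 of the 70300 windows. The mice were C57BL/6J in both groups, and the sorted cells were F4/80-high and Tim4-positive in both groups. The groups were Kupffer cells after the NASH diet and Kupffer cells after the control diet, with 2 ChIP-seq libraries of H3K27ac and 2 of each factor (LXR, ATF3 and P300) in each. Livers of both groups were perfused and digested with flavopiridol, an inhibitor of transcription elongation, in the buffer. The sources used here do not give age, sex, pooling of animals or time on the diet, and one header names a 20-week list of open chromatin. Nothing in them says that the libraries came from separate animals. The p-values below therefore rest only on the spread between 2 libraries a group, which may be technical. In limma that spread is shared over genes through its trend with level. The limma p-values and standard errors are therefore not set by a gene's own libraries alone.

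The proteasome is the protease of cytosol and nucleus that degrades proteins marked with ubiquitin. Its barrel-shaped core, the 20S particle, is built of alpha and beta rings, and the proteolytic sites lie on beta subunits inside it. The 19S regulatory particle caps the core, with a ring of ATPases that unfolds the substrate and non-ATPase subunits that bind and remove ubiquitin. In cells exposed to interferon, Psmb8, Psmb9 and Psmb10 replace the constitutive catalytic subunits Psmb5, Psmb6 and Psmb7, and the PA28 activator of Psme1 and Psme2 can take the place of the cap, which changes the peptides available to MHC class I. Immune cells are known to carry this immunoproteasome also at rest. H3K27ac, acetylation of lysine on histone H3, marks active promoters and enhancers. It measures chromatin, and neither RNA nor protein of the subunits was measured in the files used here.

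The members fell into 6 alpha and 7 constitutive beta subunits of the core, 3 immunoproteasome beta subunits, 5 ATPases and 13 non-ATPase genes of the cap, 4 activators, 1 inhibitor and 4 assembly chaperones. Psmc3ip matched the name pattern and encodes no proteasome protein but a factor of meiotic recombination. It was kept, as the pattern sets the members, and is given apart. Psma2, Psmc5 and Psmd13 were not analysed here. Each window was an open-chromatin region of 201 to 393 bp (median 207.5 bp) that was assigned to the gene with the nearest start. Of the 142 member windows, 63 (44.4%) lay within 1000 bp of the start, against 29.5% of all windows. Of the other 79, 22 lay within the body of the named member, 19 within another protein-coding gene and 38 in none. A member had a median of 2 windows, against 3 for all genes, and 15 members had 1 window. Psma1, Psmc1 and Psmg4, the 3 members with 10 or more windows, held 32 of the 142.

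The 4 H3K27ac libraries held 18749728 and 19231109 mapped tags in NASH cells and 9468035 and 22615879 tags in control cells, of which 7.91% to 9.60% fell in the windows. The values were tags scaled to 10000000 per library, so 3 tags, the limit that a count of 0 allows, came to 1.33 to 3.17 normalised tags, a limit that covers counting error only. The median member gene held 54.0 and 48.5 tags in NASH cells and 32.5 and 64.0 tags in control cells. All 8 Kupffer cell markers looked for had windows, and 4 of them were lowered in NASH cells. Timd4, which encodes the Tim4 protein used for the sort, had 21.3 and 26.0 normalised tags in NASH cells and 256.7 and 255.6 in control cells, and Adgre1, Clec4f and Spic were also lowered. The summed marker level was 1201 and 1100 normalised tags in NASH cells against 1852 and 1778 in control cells. The summed level of the T and NK cell list, of which only Cd3d had a window, was 12.3 and 21.8 in NASH cells against 3.17 and 3.54 in control cells. That of the neutrophil list was 4.27 and 3.64 in NASH cells against 0 and 1.77 in control cells. Of the 3 neutrophil genes with a window, 0 passed the filter on low values, so this sum rests on few tags. The summed level of the monocyte list was 339.7 and 361 in NASH cells against 305 and 306 in control cells. Of the other lists, that of cholangiocytes was 40.0 and 24.4 in NASH cells against 17.97 and 13.7 in control cells. There Spp1 was called raised. Epcam, its other gene with a window, had 16.01 and 9.36 in NASH cells against 16.91 and 11.93 in control cells, with overlap. The list of endothelium was 56.0 and 52.0 in NASH cells against 84.5 and 65.0 in control cells, with Cdh5 called lowered. Of its other genes with a window, Pecam1 overlapped, and Kdr had 5.34 and 6.24 in NASH cells against 4.22 and 3.98 in control cells. That of dendritic cells was 54.9 and 51.0 in NASH cells against 98.2 and 82.7 in control cells, with Zbtb46 called lowered. The hepatocyte list was 27.7 and 30.2 in NASH cells against 22.2 and 23.9 in control cells, the B cell list 22.4 and 13.5 in NASH cells against 16.9 and 29.2 in control cells, and the stellate cell list 12.3 and 10.4 in NASH cells against 13.7 and 16.4 in control cells. The part of these shifts in the results at proteasome genes was not tested. In bulk chromatin, a smaller share of cells that carry a mark and less of the mark in each cell cannot be told apart.

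Across the family, with tags scaled to the total of each library, H3K27ac was lower in NASH cells by about as much as at the median gene. The lower level at the median gene depended on this scaling, as its log2 change was −0.01 with TMM scaling. The summed level over the 44 genes was 2212 and 2029 normalised tags in NASH cells, against 2558 and 2405 in control cells. These sums were 0.257% and 0.257% of the tags in all windows in NASH cells and 0.267% and 0.271% in control cells. Both NASH libraries lay below both control libraries on each measure. Over all 11593 genes tested, the median log2 change, NASH minus control, was −0.29, so each log2 change below is given relative to that median, and the tests were made before the subtraction. On this scale the median of the 43 members tested was 0.07, against 0.15 for 75 cytosolic ribosomal protein genes and −0.04 for 76 respiratory chain genes. Psmf1 was the member that did not pass the filter on low values.

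By limma with Benjamini-Hochberg adjustment over all genes tested, 0 members were called raised and 2 lowered in NASH cells at an adjusted p under 0.05. Over all genes tested, 2.89% were called raised and 11.0% lowered. At an unadjusted p under 0.05, 0 members were raised and 4 lowered, or 9.30% of members against 28.9% of all genes tested. At the same p there were 2 raised and 2 lowered with TMM scaling, 3 and 2 in edgeR and 0 and 0 in DESeq2. Over all 11593 genes tested these were 1495 and 1465 with TMM scaling, 1528 and 1462 in edgeR and 1010 and 827 in DESeq2. With TMM scaling, which moved the median change of all genes to −0.01, 0 members were called in either direction while the calls over all genes were 808 raised and 738 lowered, in place of 335 and 1278. edgeR on the recovered tags called 1 member raised and 0 lowered, and DESeq2 called 0 members. Over all genes tested, edgeR called 857 raised and 764 lowered, and DESeq2 416 and 289. Both NASH libraries lay above both control libraries at 2 members tested and below both at 18, against 12.0% and 46.0% of all genes tested. The members with no overlap were 4.65% and 41.9% of those tested. The standard error of a member's log2 change ran from 0.13 to 0.62 with a median of 0.32.

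**Figure D1:**
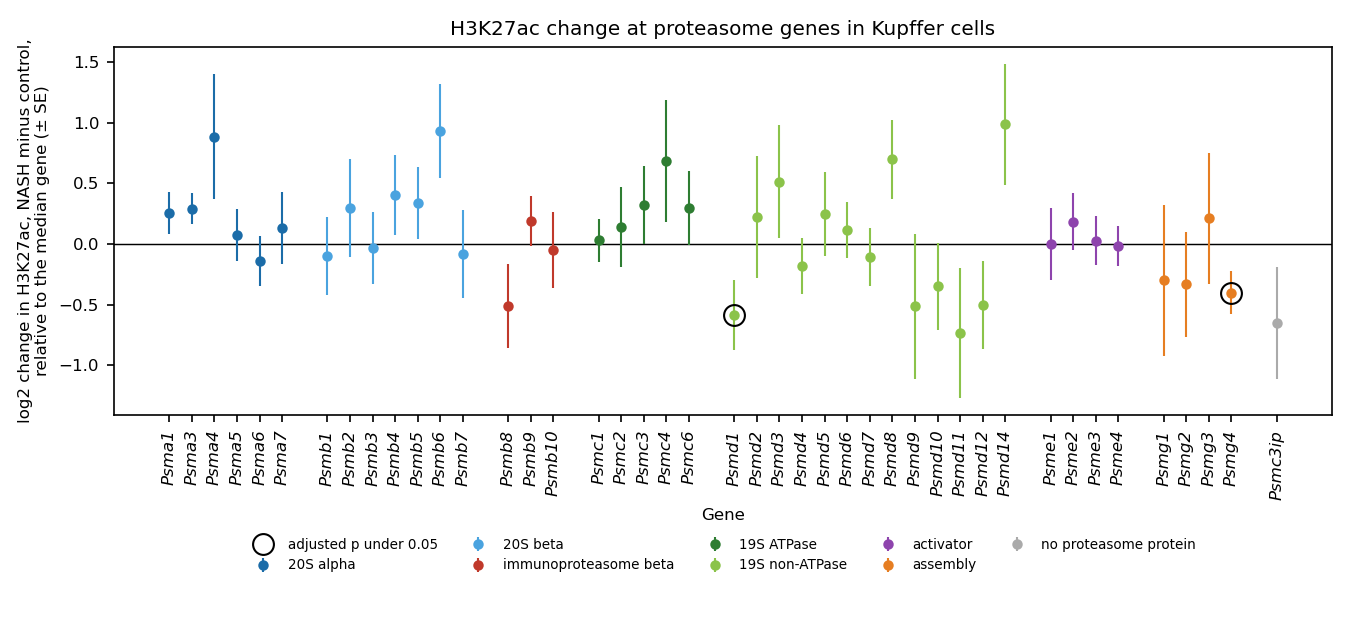
The plot shows the log2 change in H3K27ac of the 43 members tested (vertical axis, NASH minus control, relative to the median of all genes tested), with bars of 1 standard error from limma, ordered by class along the horizontal axis. Most bars cross 0, and the 2 circled genes, Psmd1 and Psmg4, were called lowered by limma, calls that were lost with TMM scaling.

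Level was compared between genes per kb of window within 1000 bp of the start, where 43 members had a window. The median of the members was 72.0 normalised tags per kb in NASH cells and 93.6 in control cells, against 44.1 in NASH cells and 59.0 in control cells over 11793 genes with such a window. By their mean over the 4 libraries, 28 of the 43 members lay above the median of all genes, a share of 65.1% against 67.5% of respiratory chain genes and 68.4% of ribosomal protein genes. Psma3, an alpha subunit of the core, had the highest density of the members, 473 and 479.8 normalised tags per kb in NASH cells and 437 and 445 in control cells, at the 99.7th percentile of all genes. Psmb9 followed at the 95.3rd percentile, then Psme3 at the 94.7th and Psme4 at the 93.2nd. Psmf1, which encodes the inhibitor PI31, had the lowest density, 22.7 and 7.39 in NASH cells against 10.0 and 12.6 in control cells, at the 18.8th percentile. Its libraries overlapped between the diets.

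The classes differed in this density. All 4 activator genes and all 3 immunoproteasome genes lay above the median of all genes, as did 6 of 7 constitutive beta genes and 4 of 6 alpha genes. Of the cap, 2 of 4 ATPase genes and 7 of 13 non-ATPase genes lay above it. These counts describe level, and no test was made between classes.

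**Figure D2:**
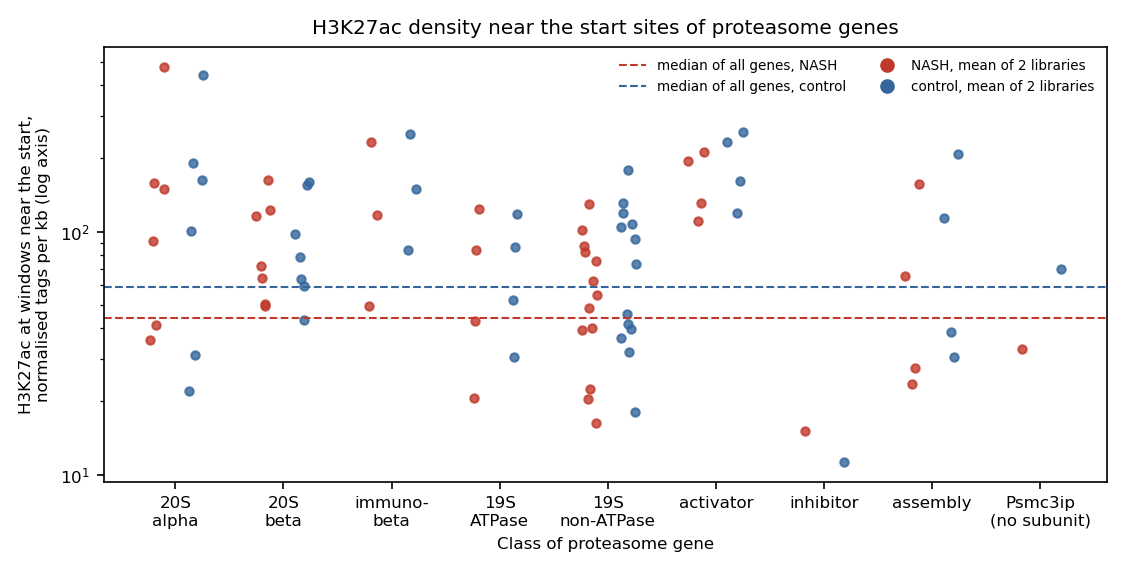
Each point is 1 proteasome gene, with the H3K27ac density of its windows near the start in normalised tags per kb on a log axis, as the mean of 2 NASH libraries (left in each class) or 2 control libraries (right), and dashed lines give the medians of all genes, 44.1 in NASH and 59.0 in control cells. Activator genes sit above both lines, and the points of 1 class spread over a wider range than the shift between diets.

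The immunoproteasome genes Psmb8, Psmb9 and Psmb10 were not called in either direction by limma without a block for replicate number, by edgeR or by DESeq2. Psmb8, whose product replaces Psmb5, had 27.2 and 14.6 normalised tags in NASH cells and 33.8 and 37.1 in control cells, from 51 and 28 tags in the NASH libraries and from 32 and 84 tags in the control libraries. Both NASH libraries were the lower ones, and the NASH libraries differed from each other more than the control libraries did. The log2 change was −0.51 ± 0.35 (SE), with a limma adjusted p of 0.131. Most of the difference was in the window over the first exon, chr17:34198253-34198459 of mm10, which had 18.7 and 10.9 in NASH cells and 29.6 and 27.4 in control cells. The limma adjusted p of that window was 0.108. Its upstream window, chr17:34197588-34197804, overlapped between the diets, with 8.53 and 3.64 in NASH cells and 4.22 and 9.73 in control cells.

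Psmb9, whose product replaces Psmb6, had 112 and 113 normalised tags in NASH cells and 97.2 and 149 in control cells, so the control libraries enclosed the NASH libraries. The log2 change was 0.19 ± 0.21 (SE), with a limma adjusted p of 0.790. Most of the signal came from chr17:34186916-34187139, with 72.5 and 77.5 in NASH cells and 56.0 and 87.6 in control cells. This window and the one at chr17:34187278-34187517 also lay within 1000 bp of the start of Tap1, a subunit of the peptide transporter for MHC class I, so their signal cannot be ascribed to 1 of the genes. Psmb10, whose product replaces Psmb7, had 29.34 and 27.04 normalised tags in NASH cells and 43.3 and 29.6 in control cells. The NASH libraries were the lower ones, by less than the control libraries differed from each other, and the limma adjusted p was 0.497. Its main window, chr8:105938024-105938239, lay at the first exon.

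The 250 bases before the annotated start of Psmb9 are shown because its windows carried most of the immunoproteasome signal. They were taken from RefSeq (GRCm38.p6) and are given from 5′ to 3′ on the gene strand. Capitals mark a GC box (GGGCGG) and a CCAAT box read on the other strand (ATTGG).
Psmb9, 250 bases before its start (chr17:34187331-34187580, minus strand): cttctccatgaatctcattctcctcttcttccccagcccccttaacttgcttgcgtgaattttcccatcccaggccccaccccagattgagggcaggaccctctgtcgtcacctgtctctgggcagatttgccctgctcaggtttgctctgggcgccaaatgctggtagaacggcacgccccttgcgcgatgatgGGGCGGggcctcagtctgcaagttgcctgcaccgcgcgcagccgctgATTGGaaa

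The balance of immunoproteasome over constitutive subunit was taken as the ratio of H3K27ac density near the starts of each replaced pair. Psmb8 over Psmb5 was 0.436 and 0.194 in NASH cells and 0.489 and 0.589 in control cells. Psmb10 over Psmb7 was 1.69 and 1.56 in NASH cells and 1.81 and 2.04 in control cells. For both pairs the NASH libraries had the lower ratios. Psmb9 over Psmb6 was 7.55 and 3.45 in NASH cells and 5.27 and 6.26 in control cells, with overlap. Over all windows of the genes the order changed for 2 of the pairs. The Psmb10 pair then overlapped, at 1.57 and 1.44 in NASH cells against 1.41 and 1.52 in control cells. The Psmb9 pair then did not, at 6.18 and 4.82 in NASH cells against 8.36 and 10.5 in control cells, since the higher NASH signal beyond the Psmb6 start was counted. The ratios were not tested.

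The genes of the PA28 activator showed no call. Psme1 had 28.8 and 28.6 normalised tags in NASH cells and 35.9 and 34.5 in control cells at its 1 window, chr14:55578360-55578578. The NASH libraries were lower by about the shift of the median gene, so that the relative log2 change was 0.00 ± 0.30 (SE), with a limma adjusted p of 0.555. Psme2, its partner in the ring, had 71.5 and 61.9 in NASH cells and 62.3 and 81.8 in control cells. The libraries overlapped, and the relative log2 change was 0.18 ± 0.23 (SE). Of its 3 windows the one that overlaps the start, chr14:55590991-55591192, also lay within 1000 bp of the start of Rnf31. Psme3, which forms the nuclear PA28 gamma ring, had 103 and 85.8 in NASH cells and 128 and 99.0 in control cells, with overlap. Psme4, which encodes PA200, had 173 and 145 in NASH cells and 202 and 189 in control cells. Both NASH libraries of Psme4 were lower, again by about the general shift, with a relative log2 change of −0.01 ± 0.17 (SE).

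**Figure D3:**
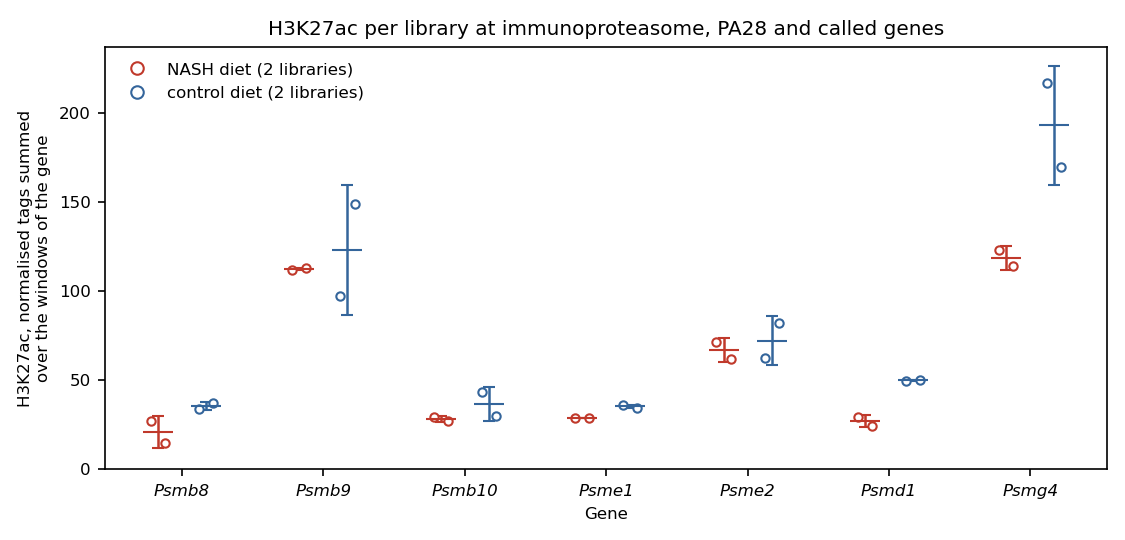
Open points give H3K27ac of each library at 7 genes, in normalised tags summed over the windows of the gene, with the mean and SD of 2 NASH libraries on the left and 2 control libraries on the right of each pair. Psmb9 and Psme2 overlap between the diets, and both NASH libraries lie below both control libraries at the other 5 genes.

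The constitutive core genes had 0 calls by limma, edgeR or DESeq2, and by limma 0 of the 13 had an unadjusted p under 0.05. The 6 alpha genes summed to 728 and 688 normalised tags in NASH cells and 745 and 764 in control cells, and the 7 beta genes to 169.6 and 171 in NASH cells and 186 and 176 in control cells. Psma3, with the most H3K27ac of the core, had 330.1 and 342 in NASH cells and 345 and 324 in control cells, with overlap. Its relative log2 change was 0.29 ± 0.13 (SE), the smallest standard error among the members. Psmb5, the constitutive subunit of chymotrypsin-like activity, had the highest level of the beta genes, with 31.5 and 38.0 in NASH cells and 34.9 and 31.8 in control cells. Psmb6, the subunit of caspase-like activity, had 18.1 and 23.4 in NASH cells and 11.6 and 14.2 in control cells. With Psma4, it was 1 of the 2 members with both NASH libraries above both control libraries. The relative log2 change of Psmb6, 0.93 ± 0.39 (SE), had a limma adjusted p of 0.279. Its window at the start overlapped between the diets, with 8 and 17.68 in NASH cells and 9.51 and 12.82 in control cells. The window beyond the gene, 3512 bp from the start, had 10.13 and 5.72 in NASH cells and 2.11 and 1.33 in control cells. Near the start alone the relative log2 change was 0.396 and the limma adjusted p 0.916.

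At Psma4, an alpha subunit, NASH cells had 7.47 and 7.28 normalised tags and control cells 4.22 and 4.86. These rest on 14 and 14 tags in NASH cells and 4 and 11 tags in control cells, and the limma adjusted p was 0.462. The lowest changes of the core were at Psma6, −0.14 ± 0.21 (SE), with 81.1 and 72.3 in NASH cells and 97.2 and 110.1 in control cells, and at Psmb1, −0.10 ± 0.32 (SE), with overlap. The remaining core genes, Psma1, Psma5, Psma7, Psmb2, Psmb3, Psmb4 and Psmb7, had relative log2 changes between −0.08 and 0.40, none called.

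The ATPase genes Psmc1, Psmc2, Psmc3, Psmc4 and Psmc6 had relative log2 changes of 0.03 to 0.69, none called by limma, with 0 at an unadjusted p under 0.05 by limma, edgeR or DESeq2. Psmc1 had the highest level and the lowest change, with 146 and 132 normalised tags in NASH cells and 182 and 151 in control cells. Both NASH libraries were lower, and the relative log2 change was 0.03 ± 0.17 (SE). Its 11 windows all lay over 1000 bp from the start used in the table, but the one at −2087 bp, chr12:100110140-100110348, overlaps the start in RefSeq. That window had 50.1 and 33.8 in NASH cells and 40.1 and 57.9 in control cells, with overlap. Psmc4 had the highest change, 0.69 ± 0.50 (SE), with 11.2 and 6.24 in NASH cells and 5.28 and 7.07 in control cells, which overlapped. Psmc2 differed between its windows. The one at its start, chr5:21785131-21785334, had 4.80 and 3.64 in NASH cells and 11.6 and 9.73 in control cells (limma adjusted p = 0.158), and the one at 1428 bp had 22.9 and 17.7 in NASH cells and 15.8 and 16.8 in control cells. NASH libraries were the lower ones at the window of the start and the higher ones at the window beyond it. The window of the start also overlaps the gene Dnajc2, so its signal cannot be ascribed to 1 of the genes.

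The non-ATPase genes held the widest range of changes, from −0.74 to 0.99, with a median of −0.11. Psmd1 encodes a large scaffold subunit of the base. It had 29.3 and 24.4 normalised tags in NASH cells and 49.6 and 50.0 in control cells, from 55 and 47 tags in the NASH libraries and from 47 and 113 tags in the control libraries. The groups did not overlap, and the mean was 26.9 ± 3.46 in NASH cells against 49.8 ± 0.233 in control cells (SD, n = 2 libraries each). The relative log2 change was −0.59 ± 0.29 (SE), and the limma adjusted p was 0.0474. The call was lost with TMM scaling (limma adjusted p = 0.133), in edgeR (adjusted p = 0.123) and in DESeq2 (adjusted p = 0.455). Leaving out either NASH library or either control library ended it too, with limma adjusted p-values of 0.0635 to 0.354. Over all alternatives the adjusted p ran from 0.0082 to 0.455, and the change kept its sign.

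The Psmd1 signal lay mostly at chr1:86064581-86064781, over the start, with 23.5 and 19.2 in NASH cells and 34.9 and 39.4 in control cells. This window came from the control list of open chromatin only. The other window near the start, chr1:86064239-86064442, had 4.80 and 3.12 in NASH cells and 7.39 and 5.75 in control cells. The bases before the start, which reach into both windows, are shown as the promoter of the called subunit. None of the letters searched for below was found in them, so they carry no capitals.
Psmd1, 250 bases before its start (chr1:86064369-86064618, plus strand): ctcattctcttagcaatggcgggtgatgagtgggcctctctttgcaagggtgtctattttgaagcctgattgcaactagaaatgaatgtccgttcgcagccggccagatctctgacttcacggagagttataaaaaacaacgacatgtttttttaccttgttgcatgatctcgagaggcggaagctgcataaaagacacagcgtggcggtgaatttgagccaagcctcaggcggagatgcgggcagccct

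Other non-ATPase genes were spread around the median without a limma call. Psmd14, the deubiquitinase of the lid, had the highest change, 0.99 ± 0.50 (SE), with 8 and 14.04 normalised tags in NASH cells and 8.45 and 4.42 in control cells. These overlapped. Psmd11, a scaffold of the lid, had the lowest change, −0.74 ± 0.54 (SE), with 2.67 and 5.72 in NASH cells and 11.6 and 7.07 in control cells. It rests on 5 and 11 tags in NASH cells and 11 and 16 tags in control cells, and the limma adjusted p was 0.212. Psmd4, a ubiquitin receptor, had the highest level of the group, with 53.3 and 58.2 in NASH cells and 72.9 and 82.3 in control cells. Its NASH libraries were both lower, with a relative log2 change of −0.18 ± 0.23 (SE). Psmd8, a lid subunit, was called raised by edgeR alone (adjusted p = 0.049), with 59.7 and 34.3 in NASH cells and 44.4 and 25.7 in control cells, which overlapped. Its limma adjusted p was 0.416. Psmd5, Psmd9 and Psmd10, numbered with the subunits, are chaperones that leave the finished cap. They had relative log2 changes of 0.25, −0.52 and −0.35, none called. Psmd2, Psmd3, Psmd6, Psmd7 and Psmd12 lay between −0.50 and 0.51, none called.

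Among the assembly chaperones, Psmg4 was called lowered. It had 123 and 114 normalised tags in NASH cells and 217 and 169 in control cells, with no overlap and a mean of 119 ± 6.60 in NASH cells against 193 ± 33.3 in control cells (SD, n = 2 libraries each). The relative log2 change was −0.40 ± 0.18 (SE), and the limma adjusted p was 0.0134. Only 2 of its 10 windows lay at the Psmg4 start, and the other 8 lay in introns of Slc22a23, a neighbouring transporter gene. Those 8 windows summed to 51.7 and 54.1 in NASH cells and 114 and 97.3 in control cells, with no overlap. The window over the start, chr13:34162862-34163067, had 37.9 and 30.2 in NASH cells and 50.7 and 25.7 in control cells, with overlap. The window in the first exon, chr13:34163129-34163342, had 33.6 and 29.6 in NASH cells and 51.8 and 46.4 in control cells, without overlap. Near the start alone the relative log2 change was −0.10 and the limma adjusted p 0.398, so the call was lost without the distal windows. The distal window with the lowest limma adjusted p of all member windows, 0.0783, was chr13:34188624-34188846, with 4.27 and 6.76 in NASH cells and 15.8 and 14.6 in control cells.

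The Psmg4 call was also lost with TMM scaling (limma adjusted p = 0.117), in edgeR (adjusted p = 0.113) and DESeq2 (adjusted p = 0.339), and without NASH replicate 1, NASH replicate 2 or control replicate 1 (limma adjusted p = 0.0598, 0.162 and 0.148). Over all alternatives its adjusted p ran from 0.000374 to 0.398. Psmg1, Psmg2 and Psmg3 had relative log2 changes of −0.30, −0.33 and 0.21, with overlapping libraries. Psmg2 was called lowered only without control replicate 2 (limma adjusted p = 0.0258), where it had 11.7 and 14.6 in NASH cells against 32.7 in the lone control library. Psmc3ip, the member with no proteasome protein, had 7.47 and 6.76 in NASH cells and 10.6 and 19.9 in control cells, with a limma adjusted p of 0.182.

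Of the 142 member windows, 93 passed the filter, and limma called 0 raised and 0 lowered, where a call needed an adjusted p under 0.05 together with a log2 change of 1 or more in size. Over all 35947 windows tested, 2.00% were called raised and 4.59% lowered, or 720 and 1651 windows, against 1272 raised and 855 lowered with TMM scaling. At an unadjusted p under 0.05, 3 member windows were higher and 16 lower in NASH cells, or 20.4% against 23.2% of all windows tested. This split depended on the scaling, with 4 higher and 2 lower under TMM (6.45% against 20.8% of all windows). It was 5 and 3 in edgeR (8.60% against 21.3%) and 2 and 0 in DESeq2 (2.15% against 10.6%). Over all windows tested, DESeq2 called 428 raised and 206 lowered, and edgeR 1357 and 1130. DESeq2 called 0 member windows, and edgeR called 2 raised. One of these lay 3512 bp beyond the Psmb6 start at chr11:70528769-70528969, with 10.1 and 5.72 normalised tags in NASH cells and 2.11 and 1.33 in control cells. The other lay at −40494 bp from the Psma1 start, at chr7:114316493-114316728, with 10.7 and 11.4 in NASH cells and 4.22 and 3.10 in control cells. TMM scaling also called the Psma1 window. At both, the NASH libraries were the higher ones, and the limma adjusted p-values without TMM scaling were 0.0894 and 0.100.

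Binding was taken from the authors' lists of reproducible sites, 1 per factor and diet, so shares are given without a test. LXR is the pair of oxysterol receptors that control cholesterol efflux genes and help set Kupffer cell identity. ATF3 is a stress-induced bZIP repressor and activator, and P300 is an acetyltransferase that writes H3K27ac. Over the whole genome the NASH lists were the longer ones, with 51709 sites against 44463 on the control list for LXR, 38828 against 16109 for ATF3 and 52628 against 25219 for P300. A higher share on a NASH list is therefore read beside the share of all genes on the same list.

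P300 sites overlapped a window of 43 of 44 members on the NASH list and 32 on the control list, or 97.7% and 72.7%, against 79.4% and 57.8% of all genes. LXR sites were found at 43 members on the NASH list and 38 on the control list, or 97.7% and 86.4%, against 78.7% and 77.8% of all genes. ATF3 sites were found at 31 members on the NASH list and 23 on the control list, or 70.5% and 52.3%, against 63.6% and 43.7% of all genes. Ribosomal protein genes had P300 shares of 89.4% on the NASH list and 80.0% on the control list, and respiratory chain genes 88.4% and 69.8%. Members on the NASH list thus stood above all genes for each factor, and by the widest margin for LXR and P300. LXR shares on the NASH list were 85.9% of ribosomal protein genes and 88.4% of respiratory chain genes, and ATF3 shares 58.8% and 58.1%. With only sites of a list score of at least 830, the LXR share on the NASH list was 81.8% of members. It was then 71.8% of all genes, 78.8% of ribosomal protein genes and 84.9% of respiratory chain genes. For P300 it was 90.9% of members, 74.1% of all genes, 87.1% of ribosomal protein genes and 86.0% of respiratory chain genes. By windows, 67.6% of member windows held a P300 site on the NASH list and 39.4% on the control list, against 58.9% and 32.3% of all windows. For LXR the shares were 61.3% and 51.4% of member windows, against 57.7% and 52.7% of all windows, and for ATF3 they were 44.4% and 25.4%, against 42.0% and 21.4%.

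**Figure D4:**
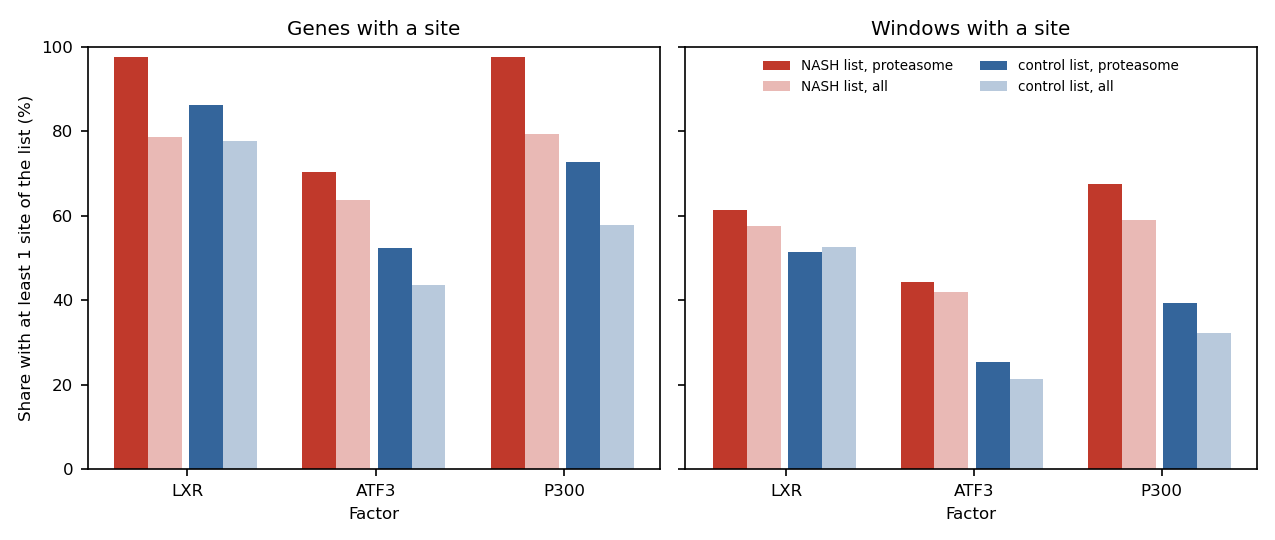
Bars give the share of genes (left panel) and of windows (right panel) that held at least 1 site of a list, on a vertical axis of percent, for proteasome genes (full colour) and for all genes or windows (pale), with the NASH list left of the control list. Proteasome genes reached 97.7% for LXR and P300 on the NASH lists, against 78.7% and 79.4% of all genes.

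Since member windows lay more often at starts, the shares were also taken within 1000 bp of the start. There, P300 sites were found at 97.7% of 43 members on the NASH list and 69.8% on the control list, against 76.1% and 53.0% of all genes with such a window. LXR sites were found at 90.7% of members on the NASH list and 79.1% on the control list, against 72.0% and 73.1% of all genes. ATF3 sites were found at 60.5% of members on the NASH list and 39.5% on the control list, against 42.5% and 25.3% of all genes. Ribosomal and respiratory chain genes had P300 shares of 87.3% and 92.2% on the NASH list there, and LXR shares of 87.3% and 92.2%. Their ATF3 shares on the NASH list there were 51.9% and 49.4%.

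The members with a site on 1 list of a factor alone are named here, and for P300 and ATF3 their shares lay near those of all genes. For P300, 11 members (25%) had a site on the NASH list only and 0 on the control list only, against 22.99% and 1.39% of all genes. The 11 were Psmb5, Psmc3, Psmc3ip, Psmc4, Psmd14, Psmd3, Psme2, Psme3, Psmf1, Psmg2 and Psmg3. For LXR, Psmb5, Psmc3ip, Psmd10, Psmd14 and Psmg2 had a site on the NASH list only, or 11.4% of members against 6.37% of all genes, and 0 members had one on the control list only, against 5.49% of all genes. For ATF3, Psma5, Psmb4, Psmb8, Psmc6, Psmd4, Psmd5, Psmd9, Psme3 and Psmg1 had a site on the NASH list only, or 20.5% of members against 23.7% of all genes. Psmd3 had one on the control list only, or 2.27% of members against 3.75% of all genes. Sites of all 3 factors were found at 31 members on the NASH lists and at 20 on the control lists, and those 20 were on all 6 lists. These 20 were 45.5% of members, against 34.6% of all genes. The other 11, with all 3 factors on the NASH lists only, were 25% of members, near the 23.8% of all genes. Psmd10 had no P300 site on either list, and Psmd3 no LXR site.

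**Figure D5:**
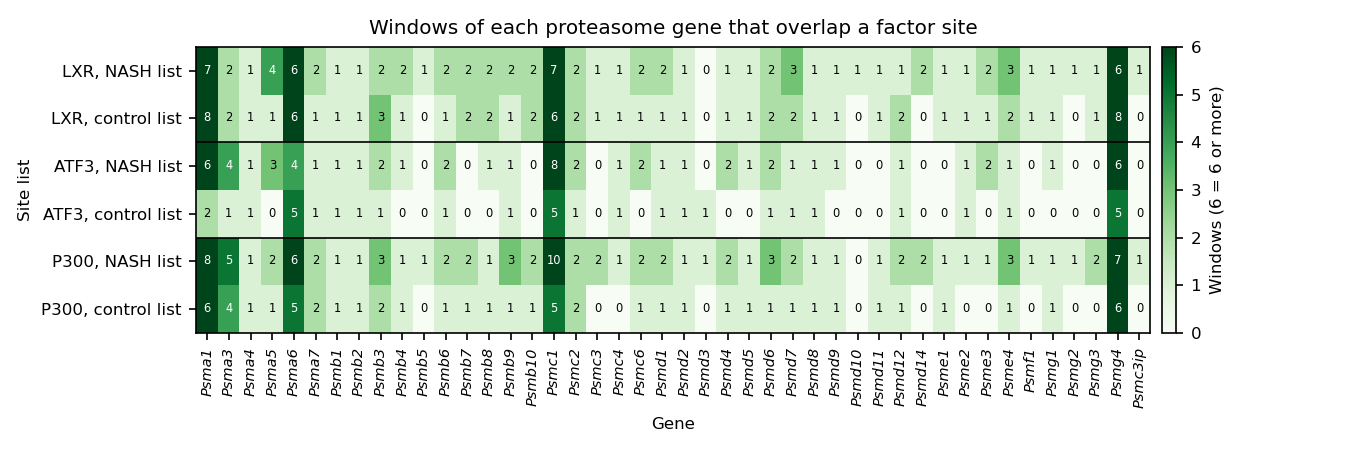
Each cell gives the number of windows of a proteasome gene (horizontal axis, by class) that overlap a site of each of the 6 lists (vertical axis), shaded up to 6 or more. Psma1, Psma6, Psmc1 and Psmg4 have the most bound windows, and empty cells are more frequent on the control lists of P300 and ATF3 than on their NASH lists.

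At the immunoproteasome genes the sites fell as follows, with the score of the authors' lists, which reaches 1000. For LXR and P300 it is the IDR score, a measure of reproducibility, and for ATF3 it is an unnamed column with a like range, read as the same score. Psmb8 held an ATF3 site at chr17:34198258-34198469 on the NASH list only, with a score of 996, overlapping the first-exon window described above. At the same window LXR and P300 were on both lists, each with a score of 1000. Psmb9 held an ATF3 site on the NASH list 6641 bp from its start, at chr17:34180587-34180801, and on the control list at its start, at chr17:34187258-34187517, with scores of 668 and 543. P300 was found at 3 windows of Psmb9 on the NASH list and at 1 on the control list. Psmb10 held LXR sites on both lists and no ATF3 site. Its first-exon window held a P300 site on the NASH list only, at chr8:105937999-105938222 with a score of 1000, and the window 1305 bp from the start held one on both lists. Psme1 held LXR and P300 sites on both lists at its single window and no ATF3 site. Psme2 held LXR and ATF3 sites on both lists and a P300 site on the NASH list only, at chr14:55590971-55591182 with a score of 1000.

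Windows assigned to the called genes held sites of all 6 lists. At Psmd1, LXR, ATF3 and P300 sites lay at chr1:86064239-86064442 on both diets' lists. At the stronger H3K27ac window over the start, 1 LXR site was on the NASH list only, at chr1:86064537-86064750 with a score of 817. Psmg4 had LXR sites at 6 windows on the NASH list and 8 on the control list, ATF3 sites at 6 and 5, and P300 sites at 7 and 6. Most of these windows were the distal ones in introns of Slc22a23, among them all with an LXR site on the NASH list. The window over the Psmg4 start held LXR and ATF3 sites on the control lists only and P300 sites on both. The first-exon window held only an ATF3 site, on the NASH list. The 53 member windows with all 3 factors on the NASH lists had a median of 10.3 normalised tags of H3K27ac in NASH cells and 9.98 in control cells. The 33 member windows with no site on any list had a median of 2.60 in NASH cells and 5.21 in control cells. Over all windows the medians were 6.07 in NASH cells and 7.15 in control cells with all 3 factors, and 1.59 and 2.11 with no site.

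Promoters of 37 of the 44 members had a RefSeq entry, and the 250 bases before the start were searched on both strands for letters of factors known to act on proteasome, interferon, ATF3 or LXR targets. Each gene was counted once, as a match if any of its annotated starts had the letters. Shares of promoters below are therefore shares of genes. The ETS core CCGGAAG, read by factors such as the GABP complex, was found in 13 of the 37 (35.1%). It was found in 7.83% of 27025 genes with an entry and in 15.8% of the 9197 genes with a window near the start. Ribosomal protein promoters held it in 26.7% and respiratory chain promoters in 17.1%. Several of the cores are shown because they recur in members of different classes. Capitals mark the core, and each is written on the strand that reads CCGGAAG.
Psma6 (chr12:55398683-55398709, plus strand): gagccaccacCCGGAAGcccgcggacc
Psmc1 (chr12:100110164-100110190, minus strand): atcgccaccgCCGGAAGtgcatccacc
Psmc6 (chr14:45329714-45329740, plus strand): ggcgggccagCCGGAAGgggcggagcc
Psmd12 (chr11:107479501-107479527, minus strand): gtcactcgcaCCGGAAGtcgcccgctc
Psmd6 (chr14:14120974-14121000, minus strand): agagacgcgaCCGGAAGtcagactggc
Psme4 (chr11:30771712-30771738, plus strand): tggccccgccCCGGAAGtgacttgagg
Psmg1 (chr16:95991013-95991039, minus strand): tcgcggcggaCCGGAAGctcttaggtt

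Of the 15 cores in the 13 members, 12 lay within 100 bases of the start. Psmc3ip alone held 3 of them. The GC box GGGCGG was found in 54.1% of member promoters, against 35.4% of all promoters and 64.7% of those with a window near the start. The CCAAT box was found in 35.1%, against 37.5% of all. The core of the antioxidant response element, TGACNNNGC, which NFE2L1 and NFE2L2 read, was found in 5 members (13.5%), Psmb5, Psmb6, Psmc6, Psmd12 and Psmd9. Its share was 11.5% of all promoters and 14.4% of those with a window near the start. The interferon-stimulated response element core, GAAA repeated after any 2 bases, was found in 3 members, Psmb3, Psmd4 and Psmd9, none of them an immunoproteasome gene. These were 8.11% of members, against 3.46% of all promoters and 3.34% of those with a window near the start. Ribosomal protein promoters held this core in 8.33% and respiratory chain promoters in 2.86%. The AP-1 letters TGANTCA were found in Psmd9 (2.70% against 7.82%). The CRE TGACGTCA and the LXR direct repeat, AGGTCA repeated after any 4 bases, were found in 0 members, against 1.77% and 0.0148% of all promoters. The AP-1, CRE and antioxidant letters can share bases at one place. Each match describes letters in this window only.

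Genes that act with the proteasome were read from lists chosen by function, with log2 changes again relative to the median gene. Of 15 genes of MHC class I antigen processing tested, limma called 0 in either direction, with a median relative log2 change of 0.18. At an unadjusted p under 0.05, 1 was raised and 1 lowered, edgeR called 1 raised and DESeq2 called 0. H2-Q7, a class Ib molecule, was the one called with TMM scaling (limma adjusted p = 0.0487), with 16.5 and 15.6 normalised tags in NASH cells and 8.45 and 7.52 in control cells. Of 15 interferon pathway genes, limma called 0 raised and 3 lowered, Tyk2, Irf1 and Ifnar2, while edgeR and DESeq2 each called 1 lowered, and the median relative log2 change was −0.03. At an unadjusted p under 0.05, limma had 0 raised and 5 lowered, against 1 and 1 with TMM scaling and in edgeR. Over all genes tested, limma called 11.0% lowered. Tyk2, a receptor-bound kinase, had 80.0 and 64.0 in NASH cells and 149 and 147 in control cells, with a limma adjusted p of 0.00149 and a call that held with TMM scaling (limma adjusted p = 0.0039). Irf1, the interferon-induced factor that acts on Psmb9 and Tap1, had 202 and 179.9 in NASH cells and 311 and 253 in control cells, and its limma adjusted p of 0.0211 was 0.301 with TMM scaling. Ifnar2, a subunit of the type I interferon receptor, had 279 and 269 in NASH cells and 366 and 367 in control cells, with a limma adjusted p of 0.0383, or 0.654 with TMM scaling.

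Of 16 proteasome-associated genes tested, limma called 0 raised and 2 lowered, edgeR 2 raised and DESeq2 0 in either direction, with a median of −0.03. At an unadjusted p under 0.05, limma had 0 raised and 3 lowered. AI314180, the mouse gene of the adaptor ECPAS, had 67.7 and 64.5 normalised tags in NASH cells and 123 and 97.3 in control cells (limma adjusted p = 0.0294). Nploc4, a cofactor of the VCP segregase, had 27.7 and 17.2 in NASH cells and 51.8 and 40.2 in control cells (limma adjusted p = 0.0374). With TMM scaling neither was called, and Uchl5 and Vcp were called raised instead. Pomp, the maturation factor of the core, had 66.1 and 65.0 in NASH cells and 81.3 and 65.0 in control cells. It was not called.

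Of 12 genes that control transcription of subunit genes, limma called 0 raised and 2 lowered, Keap1 and Mafg, with 3 raised and 4 lowered at an unadjusted p under 0.05. edgeR called 4 raised and DESeq2 3, and the median relative log2 change was 0.29. Keap1, the adaptor that targets NFE2L2 for degradation, had 218 and 208 normalised tags in NASH cells and 336 and 321 in control cells (limma adjusted p = 0.00512). Mafg, a small MAF partner, had 229.9 and 201 in NASH cells and 303 and 302 in control cells (limma adjusted p = 0.0266). With TMM scaling both calls were lost, at limma adjusted p-values of 0.171 and 0.448, and Nfe2l2, Maff, Nfya and Nfyc were called raised. Nfe2l2 had 670.4 and 659 in NASH cells and 490.1 and 567 in control cells, with a limma adjusted p of 0.0520, or 0.00784 with TMM scaling. Nfe2l1, the factor of the rebound of subunit genes after proteasome inhibition, had 69.9 and 47.8 in NASH cells and 57.0 and 46.0 in control cells, with overlap. Of 6 ubiquitin genes tested, 0 were called by limma, edgeR or DESeq2, and 0 had an unadjusted p under 0.05 in any of them.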

How the data were processed

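H3K27ac, LXR, ATF3 and P300 were measured by ChIP-seq in sorted Kupffer cells, 2 libraries per diet each. No value is set against input, since the 10 input samples were not used here, nor was 1 sample from the peritoneum. Groups came from the sample titles. The members, lists and tests were chosen with earlier results of these data known.

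The submitters' processing notes name Bowtie2, HOMER and DESeq2, with no version, and the builds mm10 and GRCm38. Per the file headers, the authors deposited H3K27ac as a HOMER signal, in which each library's tags are brought to a total of 10000000, in windows merged from control and 20-week diet lists of open chromatin. Per the file headers, the LXR and P300 sites were deposited with an IDR score and made at an IDR threshold of 0.05. The deposited ATF3 lists name no score column and no threshold, and their sixth column was read as the score from its range. The NASH headers of those lists carry another number than the 20-week list, so time on diet may differ between assays.

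Whole tags were recovered from the header totals, 100% of values within 0.02 of a whole number. Only the mark inside an open window is counted, so that on flanking nucleosomes is partly missed. There were 0 columns of other samples. Values were summed per gene by the name in the table, 12 windows without a name left out. Genes and windows were kept by edgeR 4.0.16 filterByExpr (minimum count 10) and tested with limma 3.58.1 (trend) on log2(normalised tags + 1), whose fold changes understate those of low genes, with Benjamini-Hochberg adjustment in R 4.3.3. Alternatives were TMM scaling, other pseudocounts, no filter, edgeR and DESeq2 1.42.0 on whole tags, the replicate block, each library left out, and windows within 1000 bp of the start. The tests were checked on simulated data. Overlap with a site meant at least 1 bp (bedtools 2.31.1).

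Replicates correlated at r = 0.905 in NASH and 0.887 in control cells over log2 values of all windows, and differed by more than sampling noise. Genes named are the immunoproteasome and PA28 genes, each called member or window, the highest level and both extremes of change per class, members on 1 list of a factor only, and up to 6 called genes per list. Other genes named were chosen after their values were seen.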

Additional observations from a re-analysis of the deposited data

How the results depend on the processing

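With 12 settings, 514 results for single members were compared with the values reported. Of these, 494 stayed on their side of the threshold, 17 lost a call (9 for Psmd1 and 8 for Psmg4), 3 gained one and 0 called changes reversed. Relative to the median gene, 37 of the uncalled changes took the other sign. Against 2 members called lowered, 0 were called with TMM scaling, with no filter on low values (where 0 of all genes were called), in edgeR, in DESeq2 and with windows near the start only. edgeR called 1 member raised, Psmd8. Member windows called raised were 1 with TMM scaling and 2 in edgeR, against 0 in limma. Leaving out 1 library at a time gave 0 to 2 members called lowered, 0 without NASH replicate 1, NASH replicate 2 or control replicate 1, and 2 without control replicate 2. It gave a median log2 change of the members, relative to all genes, of 0.028 (without NASH replicate 1) to 0.081 (without control replicate 2), and 0 to 2 member windows called lowered, 1 without control replicate 1 and 2 without control replicate 2. Calls over all genes then lay between 98 and 395 raised and between 259 and 1967 lowered, the fewest without NASH replicate 2. With 1 library left in an arm, that library was assumed to vary like the other group.

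The replicate block was fitted although the numbers share only a number: over 2 pairs, the deviations of same-numbered libraries correlated at r = 0.05 across 11181 genes, which are not independent. With the block, limma called 0 members raised and 3 lowered (Psmb8, Psmd1 and Psmg4, adjusted p = 0.0412, 0.0082 and 0.000374) and 1 member window lowered. Over all genes it called 493 raised and 2263 lowered.

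Of 48 counts of bound genes or windows, 7 moved by over 1.5 times. With windows near the start only, fewer windows being counted, 43 held an LXR site on the NASH list and 36 on the control list, 28 and 17 an ATF3 site, and 47 and 31 a P300 site. With a score of at least 830, 15 members had an ATF3 site on the control list, against 23. The cause of the other differences was not tested. The shallowest library, control replicate 1, sets the floor, and low members such as Psma4, Psmd11 and Psmf1 rest on few tags.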
